A study of Mus musculus with 24 samples.

Results

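The question was whether the response of the medial prefrontal cortex (mPFC) to duloxetine differed with the gut bacterium *Ruminococcus flavefaciens*. For each gene, the difference between mice given both treatments and mice given the bacterium alone was set against the difference between mice given duloxetine alone and control mice. The second difference was subtracted from the first, and the result is called the interaction. All 24 mice of the study and all 4 groups of 6 mice entered it, and it was tested for 14974 of the 15456 genes in the table.

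The study sequenced mRNA from the mPFC of male BALB/c OlaHsd mice aged 11 weeks, with 1 library per mouse. Control mice, labelled no treatment, received PBS by injection and by gavage according to the methods. Duloxetine treated mice were injected intraperitoneally each day with duloxetine. *R. flavefaciens* treated mice were gavaged with the live bacterium, 2 times a week per the labels. The methods add daily gavage in the first days. The fourth group, labelled ruminococcus+duloxetine, received both treatments. No separate stress protocol is described for these mice, although daily injection can itself be a stressor, and the strain itself served as the model of depressive-like behavior.

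Duloxetine blocks the reuptake of serotonin and noradrenaline, so that both transmitters act longer on their receptors, and in the cortex these receptors change the firing and the gene expression of neurons and glia. *R. flavefaciens* is an anaerobic bacterium that breaks down plant fibre, and gut bacteria are thought to act on the brain through nerves, immune cells or molecules in the blood. An interaction of 0 means that the difference made by duloxetine was the same with and without the bacterium. A positive interaction means that the difference was more positive in mice that also had the bacterium. All values of the interaction and of the differences behind it are on the log2(value + 1) scale, where value is the normalized count, so that the change of genes with low counts is understated.

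Between 12811413 and 15607343 reads were recovered from the normalized counts of each mouse. Control mice had a median of 13591497 reads, mice given duloxetine alone 14536037, mice given the bacterium alone 13943370 and mice given both 14621655. The duloxetine group was deeper than the control group (exact permutation test, two-sided, p = 0.00433, adjusted over 6 comparisons p = 0.013), and so was the combined group (p = 0.00433, adjusted p = 0.013, exact permutation test). Between the combined and the *R. flavefaciens* group the test gave p = 0.0714 (adjusted p = 0.143, exact permutation test). The part of depth in the interactions was not tested.

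Mouse 9.3 of the *R. flavefaciens* group stood apart from all other libraries. Its genes differed from the mean of its 5 group mates by a median of 0.197 on the log2 scale, while this value lay between 0.0805 and 0.149 in the other 23 mice. When each mouse was given a weight from its residuals, mouse 9.3 had a weight of 0.247, followed by 8.4 with 0.507, 12.2 with 0.6 and 7.2 with 0.612. The deviations of 9.3 from the mean of all 24 mice were lower in genes with longer exons. Their Spearman correlation with exon length across genes was -0.503, and genes are not independent replicates. Mouse 8.4, of the same group, had the highest summed level of striatum markers, 7060 normalized counts against 2132 to 4433 in the other mice, and of choroid plexus markers, 824.8 against 32.1 to 173. For many of the results that rest on these mice, values without 1 or both of them are therefore also given.

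The 8 excitatory neuron markers, led by *Camk2a*, were above 0 in all 24 mice, with summed levels from 96100 to 114000 normalized counts, so that the defining markers of cortical neurons were present in the labelled tissue. In whole tissue, fewer cells of a type and less RNA per cell cannot be told apart.

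No gene had an interaction with an adjusted p-value under 0.05 (limma, Benjamini-Hochberg), which is 0 percent of 14974 genes. The smallest adjusted p-value was 0.639, shared by 845 genes. The edgeR quasi-likelihood test and DESeq2 on the recovered reads also called 0 genes, with smallest adjusted p-values of 0.667 and 0.255. At an unadjusted p-value under 0.05, limma counted 1128 genes, 7.53 percent of those tested, edgeR 1099 and DESeq2 1075. Of the 1128 genes, 578 were positive (3.86 percent of genes tested) and 550 negative (3.67 percent). The median interaction of all tested genes was 0.00 and the median absolute interaction 0.105.

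The standard error of the interaction had a median of 0.123, against 0.0871 for a difference between a pair of groups in the same fit. The 95% interval of the interaction lay within 1 log2 unit of 0 for 13697 genes (91.5 percent) and within 0.5 for 9943 (66.4 percent). For the other genes the interval reached past these bounds, so that an interaction of that size was within the error at this depth.

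The differences behind the interaction came from the same fit. Duloxetine alone against control gave 0 genes with an adjusted p-value under 0.05 (limma, 0 percent) and 573 at an unadjusted p-value under 0.05. The study, which used DESeq2, called only *Adrb1* in this comparison, where its adjusted p-value here was 0.464 (limma). Both treatments against the bacterium alone gave 334 genes (2.23 percent) at an adjusted p-value under 0.05 (limma) and 2944 at an unadjusted one. That genes passed the threshold in the second comparison and not in the first does not show that the responses differ, and the test of that difference is the interaction, which called 0 genes. The interaction is also the difference between another pair of comparisons. The bacterium alone against control gave 4 genes with an adjusted p-value under 0.05 (limma) and 2939 at an unadjusted one. Both treatments against duloxetine alone gave 0 and 883. The larger unadjusted counts were thus those of the comparisons that hold the bacterium-only group.

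**Figure D1:**
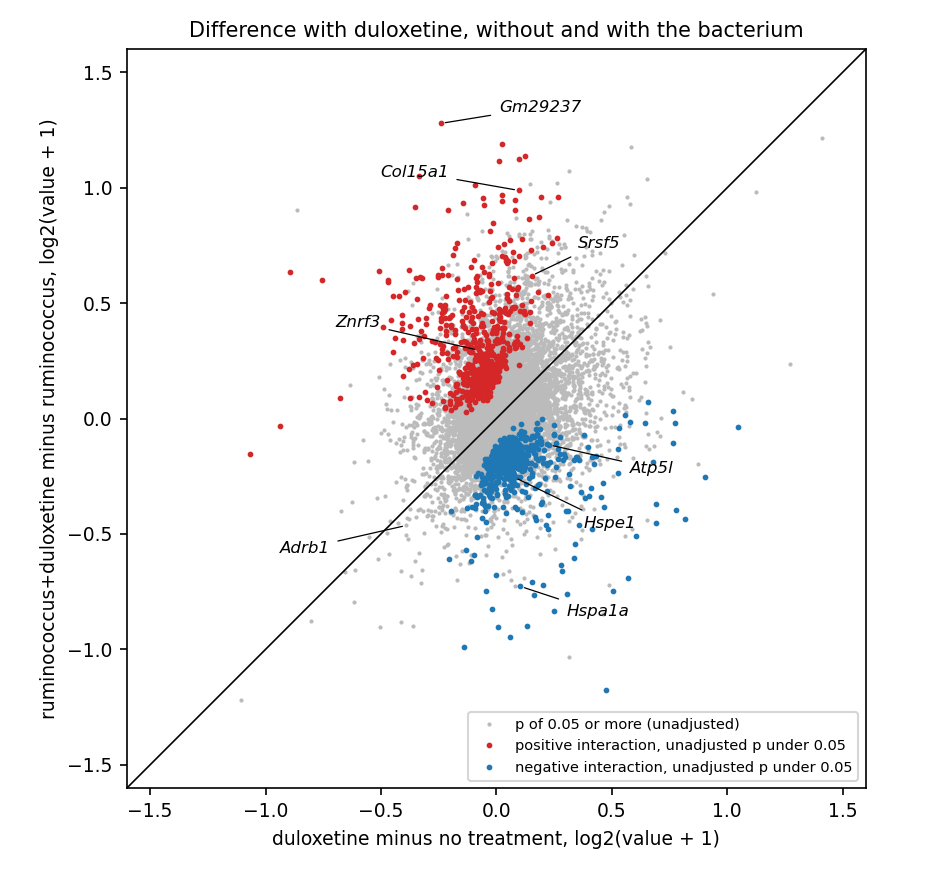
The difference made by duloxetine in mice without the bacterium (x axis) and in mice with it (y axis), both as log2(value + 1), for 14974 tested genes, 1 of which lies outside the axes. On the diagonal the interaction is 0, and red and blue points are the 578 positive and 550 negative genes with an unadjusted p-value under 0.05.

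To see which of the 4 groups carried these 1128 interactions, the group whose mean lay farthest from the median of the 4 group means was noted for each gene. It was the *R. flavefaciens* group for 688 genes (61.0 percent), the combined group for 283 (25.1 percent), the control for 111 (9.84 percent) and the duloxetine group for 46 (4.08 percent). Over all 14974 tested genes the shares were 38.2, 27.6, 23.2 and 11.0 percent in the same order. Among the 688 genes, the bacterium-only group was the higher in 338 and the lower in 350. Without mouse 9.3 the count at an unadjusted p-value under 0.05 was 886 genes, of which 422 (47.6 percent) had the *R. flavefaciens* group and 319 (36 percent) the combined group farthest out, beside 31.3 and 32.7 percent of all tested genes in that setting.

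Among the 15 genes with a positive interaction and the smallest p-values, the *R. flavefaciens* group lay farthest out for 10 and the combined group for 5. Their interactions reached 1.52. Their difference with duloxetine alone lay between -0.30 and 0.10, and none had an adjusted p-value under 0.05 there (limma). With the bacterium present the difference lay between 0.20 and 1.28, and 14 of 15 had such a p-value (limma), beside 2.23 percent of all genes. These genes were chosen for their interaction, so these counts describe the choice and support nothing.

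*Znrf3*, a ubiquitin ligase that removes Wnt receptors from the cell surface, had the smallest p-value of all interactions. In GRCm38 the gene spans positions 5276324 to 5444847 of chromosome 11, on the minus strand. The lowest, median and highest normalized counts were 278, 291 and 306 in control mice, 250.3, 280 and 296 with duloxetine, 221, 228 and 264 with the bacterium, and 262, 291 and 304 with both. The bacterium-only mice lay below all control mice, and 5 of them below every mouse given both. Its interaction was 0.37 with a standard error of 0.080 and an adjusted p-value of 0.639 (limma), and it stayed between 0.35 and 0.41 with each mouse left out.

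*Kat6b*, a histone acetyltransferase, had 881, 929 and 1034 normalized counts (lowest, median, highest) in control, 799.5, 879 and 985 in duloxetine, 566, 803 and 850.2 in *R. flavefaciens* and 865, 1002 and 1023 in combined mice. All 6 bacterium-only mice were below all 6 control mice and all 6 mice given both, and the lowest value was that of mouse 9.3. The interaction was 0.44 (standard error 0.11, limma adjusted p = 0.639) and 0.36 without mouse 9.3.

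*Col15a1*, a collagen of basement membranes, differed in the combined group instead. It had 23.8, 37.2 and 66.8 normalized counts in control, 31.8, 40.2 and 48.7 in duloxetine, 25.2, 31.9 and 40.1 in *R. flavefaciens* and 57.3, 62.7 and 77.5 in combined mice. Every mouse given both was above every mouse given a single treatment, and a single control mouse reached their range. The interaction was 0.89 (standard error 0.25, limma adjusted p = 0.639). The 9 meningeal markers, led by *Col1a2*, another collagen, had a median interaction of -0.52 and the 10 endothelial and pericyte markers of 0.01.

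*Gm29237* had the largest interaction among the 15, 1.52 with a standard error of 0.34, at means from 8.63 to 21.9 normalized counts. It lies on the plus strand inside *Sptbn1*, which is read from the minus strand, and without a stated strand setting the reads of such a pair cannot be told apart. *Zkscan2*, a zinc finger gene, had a mean of 288 ± 28.5 normalized counts (SD, n = 6 mice) with both treatments and 197 ± 29.5 (SD, n = 6) with the bacterium alone, and its interaction was 0.63. Every mouse given both was above every mouse given the bacterium alone. Further genes were *Ptchd4*, a patched-domain gene, at 0.68, *Tex9*, which overlaps *Mns1* on the opposite strand, at 0.86, and *Pik3r5*, a regulatory subunit of a phosphoinositide kinase, at 0.71. *Gtf2ird1* and *Zfp318*, nuclear factors, had interactions of 0.40 and 0.26, and *Unc13b*, which primes synaptic vesicles, of 0.32. *Fam135a* had an interaction of 0.38, *5930430L01Rik* of 0.61 and *AC165273.1* of 0.65.

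Among the 15 genes with a negative interaction and the smallest p-values, the *R. flavefaciens* group lay farthest out for 10, the combined group for 3 and the control group for 2. Their interactions ranged from -0.51 to -0.22. The difference with duloxetine lay between -0.04 and 0.34 without the bacterium and between -0.35 and -0.11 with it, where 12 of 15 had an adjusted p-value under 0.05 (limma), beside 2.23 percent of all genes. These genes too were chosen for their interaction, so the counts describe the choice and support nothing.

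*Ccng2*, a cyclin linked to growth arrest, had the smallest p-value among them. It had 620, 674 and 708 normalized counts in control, 623, 654 and 667 in duloxetine, 697, 730 and 809.5 in *R. flavefaciens* and 538.5, 582 and 652 in combined mice. No mouse given both reached the range of the bacterium-only mice, whereas the duloxetine and control mice overlapped. The interaction was -0.28 (standard error 0.067, limma adjusted p = 0.639).

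*Hagh*, which hydrolyses a glutathione thioester made from methylglyoxal, had 737, 782 and 804 normalized counts in control, 789.6, 820 and 847 in duloxetine, 822, 849.5 and 970 in *R. flavefaciens* and 656, 740.3 and 827 in combined mice. The interaction was -0.32 (standard error 0.077), and the highest mouse given both lay within the range of the bacterium-only mice. *Hagh* overlaps *Fahd1* on the opposite strand.

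*Atp5l*, a subunit of the mitochondrial ATP synthase, differed in the control group, with 628, 641 and 675 normalized counts, against 682, 758 and 815 with duloxetine, 728, 780.3 and 1008 with the bacterium and 676, 749 and 849.6 with both. Every mouse of the 3 treated groups was above every control mouse, by a narrow margin for the lowest mouse given both. Its interaction of -0.34 (standard error 0.092) thus stood on a control group below the rest, with a difference of 0.23 for duloxetine alone and of 0.33 for the bacterium alone. The highest value was that of mouse 9.3, and without it the interaction was -0.28.

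The other negative genes had roles in several parts of the cell. *Ruvbl1*, an ATPase of chromatin remodelling complexes, had an interaction of -0.32, *Polr2c*, a subunit of RNA polymerase II, of -0.26, *Impdh2*, an enzyme of guanine nucleotide synthesis, of -0.28 and *Pias4*, a SUMO ligase, of -0.29. *Chchd6*, a component of the mitochondrial cristae junction, had -0.29, *Chmp2b*, part of the membrane-cutting ESCRT machinery, -0.26 and *Igfbp4*, a binding protein of insulin-like growth factors, -0.37. *Ccdc184* had -0.33, *Tm2d2* -0.22, *6330403K07Rik* -0.26 and *2810025M15Rik* -0.51. *Polr2c*, *Impdh2* and *2810025M15Rik* each overlap another gene on the opposite strand.

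**Figure D2:**
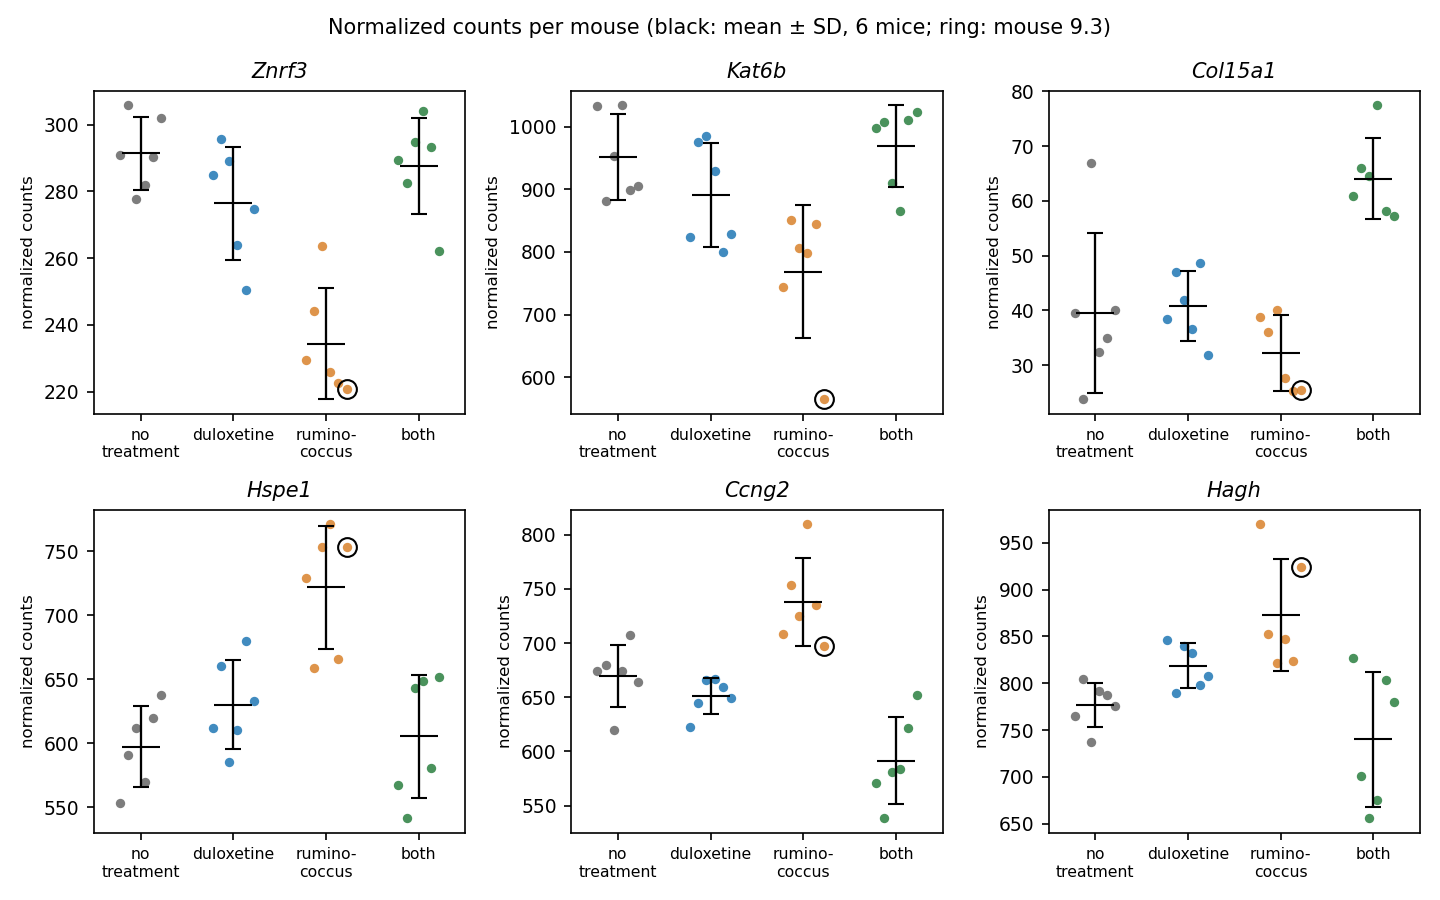
Normalized counts of 6 genes in each of 24 mice, by group, with the group mean and SD in black and mouse 9.3 ringed; the y axes do not start at 0. In the upper row the bacterium-only mice of *Znrf3* (221 to 264) and *Kat6b* (566 to 850.2) lie low and the mice given both of *Col15a1* (57.3 to 77.5) high, and in the lower row the bacterium-only mice lie high.

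None of these 30 genes had an adjusted p-value under 0.05 with any mouse left out or with a trend on transcript length removed. Their unadjusted p-values were at most 0.0046 with a mouse left out, which supports nothing, since the genes were chosen for small p-values. *Unc13b* alone had an unadjusted p-value over 0.05 once the length trend was removed.

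Heat shock proteins and other folding chaperones keep proteins from aggregating, and some of them are induced together when heat shock factor binds their promoters. The list held 20 chaperones and cochaperones, all of them tested. The interaction was negative for 19 of 20, and 4 had an unadjusted p-value under 0.05, all negative, beside 3.67 percent of all genes. Their median interaction was -0.16, against 0.00 for all tested genes. The median difference with duloxetine was -0.02 without the bacterium and -0.19 with it.

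*Hspe1*, the cochaperonin of the mitochondrial matrix, had the smallest p-value among them. In GRCm38 the gene spans positions 55088132 to 55091307 of chromosome 1, on the plus strand, and overlaps the start of its partner chaperonin *Hspd1* on the minus strand. It had 554, 601 and 637 normalized counts (lowest, median, highest) in control, 586, 622.5 and 680 in duloxetine, 659, 741 and 771 in *R. flavefaciens* and 541.5, 612 and 651 in combined mice. Every bacterium-only mouse was above every control mouse and every mouse given both, and only the duloxetine mice overlapped them. The interaction was -0.33 (standard error 0.080, 95% interval -0.49 to -0.17, limma adjusted p = 0.639). *Hspd1* had an interaction of -0.11 with an interval from -0.26 to 0.04.

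*Hspa1a*, an inducible Hsp70, had 20.8, 35.8 and 45.2 normalized counts in control, 25.5, 39.2 and 45.8 in duloxetine, 36.6, 52.6 and 68.3 in *R. flavefaciens* and 19.7, 32.0 and 41.6 in combined mice. The group ranges overlapped, and the interaction was -0.83 (standard error 0.30). *Hspa1b*, a near-identical copy with which reads can be shared, had an interaction of -0.51 with an interval that held 0. *Hspb1*, a small heat shock protein, had 67.6, 99.0 and 109 normalized counts in bacterium-only mice and 35.6, 54.8 and 69.8 in mice given both, ranges that touched only at their ends, and an interaction of -0.81 (standard error 0.30). *Dnajb4*, a cochaperone of Hsp70, had an interaction of -0.23. *Hspa5*, the Hsp70 of the endoplasmic reticulum, had -0.30, *Bag3* -0.36 and *Dnajb1* -0.28, each with an interval that held 0. The single positive member was *Hspa4l* with 0.11, which was -0.04 without mice 9.3 and 8.4.

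The chaperone list kept its values without mouse 9.3. Its median interaction was then -0.18, with 5 negative and 0 positive members at an unadjusted p-value under 0.05, beside 2.58 and 3.33 percent of all genes in that fit, and without both 9.3 and 8.4 it was -0.17. Leaving out any single mouse gave medians from -0.19 to -0.10, with -0.10 without mouse 9.1 and -0.12 without 10.2. The mean log2 score of the list, that is, the mean over its genes of a mouse's log2 value minus the mean of all 24 mice, was 0.15 ± 0.12 (SD, n = 6 mice) in the bacterium-only and -0.12 ± 0.17 (SD, n = 6) in the combined group, against 0.00 ± 0.080 in control and -0.03 ± 0.094 in duloxetine mice. The combined group held the 2 lowest scores, -0.34 in mouse 10.2 and -0.31 in mouse 11.3. The highest score of all mice was 0.33 in bacterium-only mouse 9.1. Mouse 9.3 had 0.08, below the mean of its group, so that the list rested more on these other mice than on 9.3.

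The promoters of *Hspe1*, *Hspa1a* and *Hspb1* are shown because these 3 of the 4 members with an unadjusted p-value under 0.05 carry paired heat shock element units near their start. The units searched were TTCNNGAA and GAANNTTC, each of which reads the same on both strands, and matches may overlap. At least 1 match was found in 15.1 percent of 32851 RefSeq promoters of 300 bases (GRCm38.p6, 250 bases before to 50 after the start), and in 11 of the 24 promoters of the 16 chaperone genes that the table holds. Of these 16 genes 10 had a match, and most of those with a match did not have an unadjusted p-value under 0.05. A match is a description of these letters and not a measured binding site. The sequences run 5′ to 3′ along the gene's strand, at chr1:55087898-55088197 on the plus strand, chr17:34972107-34972406 on the minus strand and chr5:135887669-135887968 on the plus strand, with the matches in capitals.
Hspe1: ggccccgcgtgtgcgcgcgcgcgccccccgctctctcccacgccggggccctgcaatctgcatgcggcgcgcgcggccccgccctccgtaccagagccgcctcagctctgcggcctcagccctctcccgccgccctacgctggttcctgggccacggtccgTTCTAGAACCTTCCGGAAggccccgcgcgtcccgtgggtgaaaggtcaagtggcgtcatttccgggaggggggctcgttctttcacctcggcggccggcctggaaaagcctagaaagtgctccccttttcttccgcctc
Hspa1a: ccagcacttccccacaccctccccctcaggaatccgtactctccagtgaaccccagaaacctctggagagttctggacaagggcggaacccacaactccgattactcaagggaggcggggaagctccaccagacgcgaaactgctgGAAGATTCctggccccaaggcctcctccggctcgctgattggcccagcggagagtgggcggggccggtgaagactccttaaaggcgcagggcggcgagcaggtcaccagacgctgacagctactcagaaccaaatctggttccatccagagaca
Hspb1: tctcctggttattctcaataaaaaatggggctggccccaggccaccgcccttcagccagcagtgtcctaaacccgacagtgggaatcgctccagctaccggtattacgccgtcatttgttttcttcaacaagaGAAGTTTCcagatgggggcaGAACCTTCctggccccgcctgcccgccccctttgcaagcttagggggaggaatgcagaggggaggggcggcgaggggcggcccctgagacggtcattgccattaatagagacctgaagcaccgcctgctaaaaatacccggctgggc
The *Hspe1* window, which lies within the annotated span of *Hspd1*, held 3 overlapping matches, *Hspb1* 2 and *Hspa1a* 1. The window at the annotated start of *Dnajb4* held 0.

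**Figure D3:**
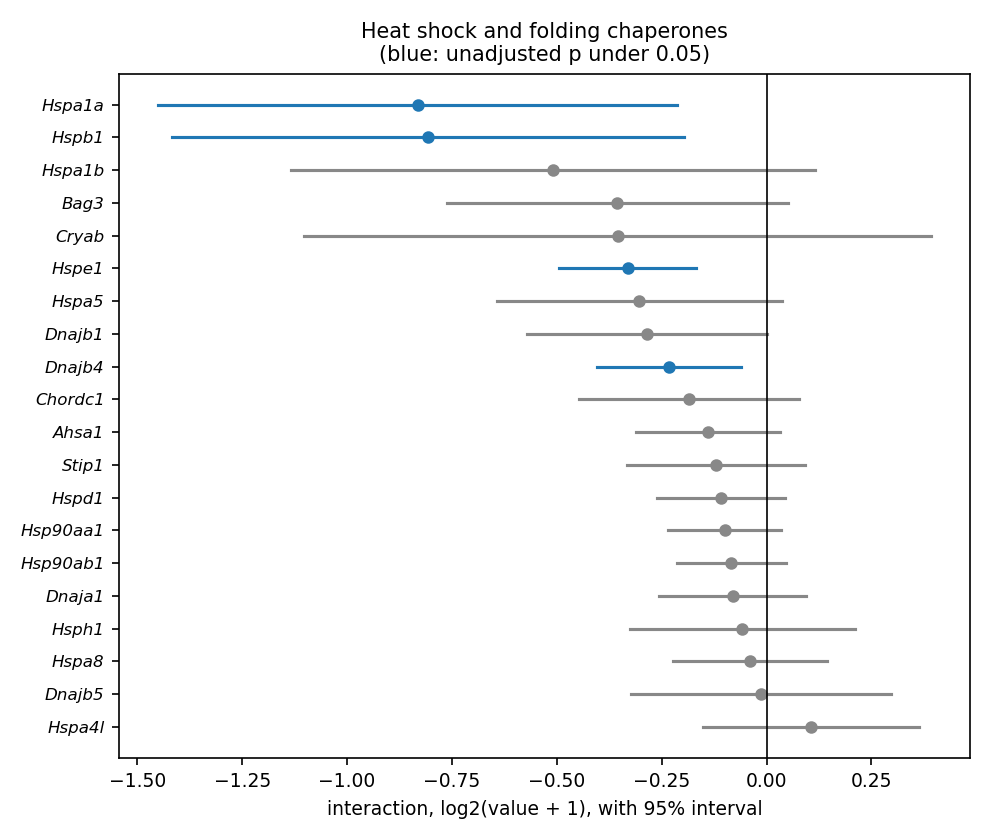
Interaction of each of 20 heat shock and folding chaperones (x axis, log2(value + 1)) with its 95% interval, ordered by size, in blue where the unadjusted p-value was under 0.05. All points but *Hspa4l* (0.11) lie below 0, and 4 intervals do not hold 0.

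Genes of mitochondrial respiration formed further lists. Complex I passes electrons from NADH to ubiquinone, and all 36 listed subunits were tested. The interaction was negative for 34, and 10 had an unadjusted p-value under 0.05, all negative (27.8 percent against 3.67 percent of all genes). The median was -0.16, from a median difference with duloxetine of 0.04 without the bacterium and of -0.11 with it. *Ndufa11* had 524, 552 and 606 normalized counts in control, 558, 583 and 662 in duloxetine, 555, 638 and 760.1 in *R. flavefaciens* and 511, 554 and 653 in combined mice, overlapping in all groups, and an interaction of -0.29 (standard error 0.10). *Ndufb6* had -0.31, *Ndufb9* -0.27 and *Ndufa3* -0.26. *Ndufa11*, *Ndufb6* and *Ndufa3* each overlap another gene on the opposite strand, as do *Mrpl46*, *Psmc3*, *Kdm1b*, *Ddit3*, *Unc13a* and *Dync1h1* among the genes named further on, so that their counts are uncertain in the same way.

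The ATP synthase, 16 subunits, had 6 negative (37.5 percent, beside 3.67 percent of all genes) and 0 positive members at an unadjusted p-value under 0.05 and a median of -0.17. Complex III with cytochrome c, 10 genes, had 1 negative (10.0 percent) and a median of -0.14, and the 12 nuclear subunits of complex IV had 3 negative (25 percent) and a median of -0.15. The 18 enzymes of the tricarboxylic acid cycle had 1 negative member, *Mdh2* (5.56 percent), and a median of -0.05. The 13 mRNAs of the mitochondrial genome had 0 members at an unadjusted p-value under 0.05 in either direction and a median of -0.02, which was 0.04 without mouse 9.3. Their median difference with duloxetine was 0.25 without the bacterium and 0.22 with it, against 0.04 and -0.11 for the nuclear subunits of complex I.

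Mitochondrial ribosomal proteins, 77 genes, had 10 negative (13.0 percent, beside 3.67 percent of all genes) and 0 positive members and a median of -0.10. The smallest p-value was that of *Mrpl46*, with an interaction of -0.33. Its bacterium-only mice had 261, 287.5 and 331 normalized counts and its mice given both 243, 250.3 and 270.2, ranges that overlapped. Cytoplasmic ribosomal proteins, 82 genes, were negative in 81, with 6 at an unadjusted p-value under 0.05 (7.32 percent) and a median of -0.16. The proteasome, which degrades ubiquitin-tagged proteins, had 10 negative (27.0 percent) and 0 positive of 37 subunits and a median of -0.13. *Psmb4*, a subunit of its core, had an interaction of -0.26, and *Psmc3*, an ATPase of its cap, of -0.19.

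These lists moved with mouse 9.3. The complex I score of this mouse was 0.37, while the other 5 bacterium-only mice lay between -0.04 and 0.19 and the control mice between -0.11 and -0.02. Without 9.3, 5 complex I subunits were negative and 1 positive at an unadjusted p-value under 0.05, beside 2.58 percent negative and 3.33 percent positive of all genes in that fit, and the median was -0.11. The ATP synthase then had 3 negative members, the proteasome 6, complex IV 0 and the cytoplasmic ribosomal proteins 1, with medians of -0.11, -0.09, -0.07 and -0.09. Complex III and the tricarboxylic acid cycle then had 0, with medians of -0.09 and -0.02, and the mitochondrial ribosomal proteins 7 with a median of -0.07. Without both 9.3 and 8.4, the median of the cytoplasmic ribosomal proteins was -0.04. All 8 medians were below 0 in every alternative.

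Transcript length moved with the interaction too. Across 14958 genes with a length, the Spearman correlation of interaction and exon length was 0.331, and 0.212 without mouse 9.3, where genes share the same 24 libraries. With the genes in 5 bins of rising length, the median interaction was -0.09, -0.04, -0.01, 0.03 and 0.08. The median exon length was 2731 bases for the 550 negative genes, 6868 for the 578 positive and 4444 for all. Complex I subunits had a median of 1644 bases and chaperones 3568. With a trend on length removed from each mouse, the median interaction of complex I was -0.10, of the proteasome -0.09 and of the chaperones -0.19. The medians of complex III and complex IV were then both -0.08, and that of the ATP synthase -0.11. Cytoplasmic ribosomal proteins had -0.11, mitochondrial ribosomal proteins -0.07 and the tricarboxylic acid cycle -0.04. The part of length and RNA quality in the interaction was not tested further.

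**Figure D4:**
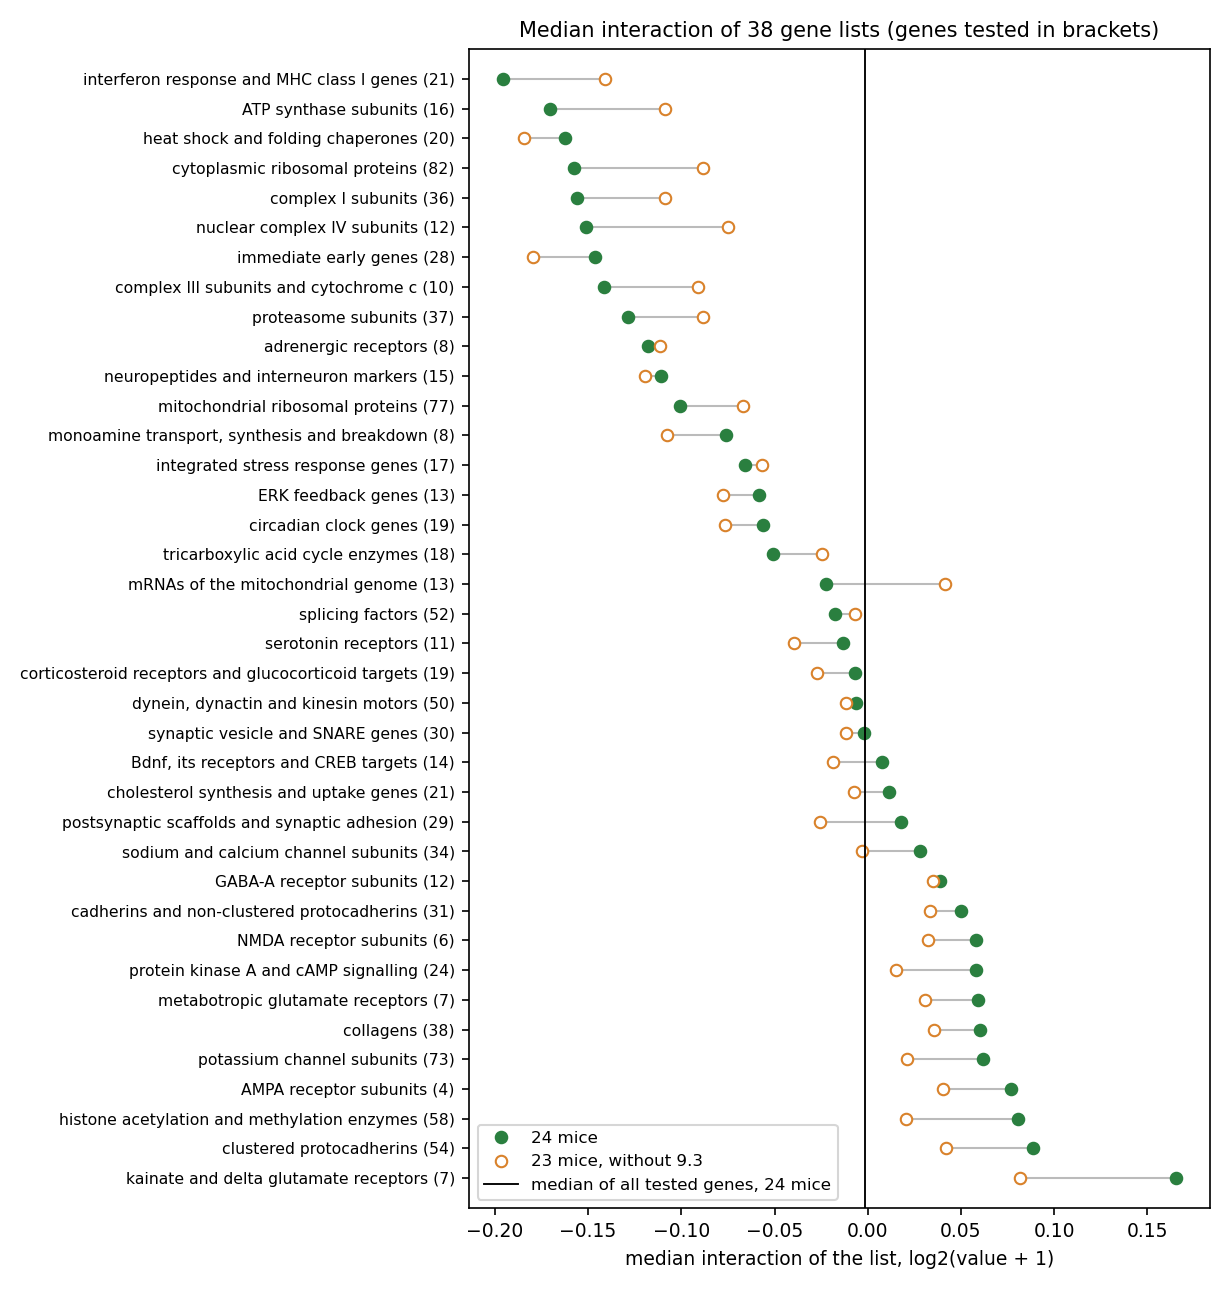
Median interaction of each of 38 gene lists (x axis, log2(value + 1)) in all 24 mice (filled) and without mouse 9.3 (open), beside the median of all tested genes (line). Lists of respiration, ribosomes, proteasome and chaperones lie left of the line, and without mouse 9.3 complex I lies at -0.11 in place of -0.16 and the chaperones at -0.18 in place of -0.16.

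Monoamine genes are the direct context of duloxetine. *Adrb1*, the beta-1 adrenergic receptor, had 592, 642 and 748 normalized counts in control, 470.4, 497 and 533 in duloxetine, 595, 652 and 716 in *R. flavefaciens* and 410.5, 441 and 583.5 in combined mice. Mice given duloxetine lay below mice that were not, with and without the bacterium. The study called *Adrb1* in duloxetine alone against control. The difference with duloxetine was -0.39 without and -0.46 with the bacterium, and the interaction was -0.07 (95% interval -0.30 to 0.15, limma adjusted p = 0.873).

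The 8 adrenergic receptors had 1 positive and 1 negative member at an unadjusted p-value under 0.05 (12.5 percent each, beside 3.86 and 3.67 percent of all genes). *Adra1a*, an alpha-1 receptor, had an interaction of 0.62 (standard error 0.26). It had 302, 327 and 343 normalized counts in control mice, and 86.5, 247 and 306 in bacterium-only mice, whose lowest value was that of mouse 9.3. Without mouse 9.3 its interaction was 0.36. *Adra2c*, an alpha-2 receptor, had an interaction of -0.28 (standard error 0.14), with 344, 371 and 436.5 normalized counts in bacterium-only and 219.5, 307 and 354 in combined mice. Without mouse 9.3 its interaction was -0.24 and no member was negative at that p-value.

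The 11 serotonin receptors also had 1 member in each direction (9.09 percent each, beside 3.86 percent positive and 3.67 percent negative of all genes). Without mouse 9.3 there was again 1 in each direction, beside 3.33 and 2.58 percent. *Htr1a*, an inhibitory receptor on neurons and serotonin cells, had 285, 324 and 340 normalized counts in control, 237, 269 and 320.3 in duloxetine, 226, 279 and 290.0 in *R. flavefaciens* and 240.1, 279 and 325 in combined mice. Its interaction was 0.31 (standard error 0.11), from a control group above the other 3 means. *Htr3a*, the subunit of an ion channel found on interneurons, had 63.4, 79.9 and 93.6 normalized counts with the bacterium and 50.6, 56.7 and 73.3 with both, and an interaction of -0.37 (standard error 0.15). Among 8 genes of monoamine transport, synthesis and breakdown, *Slc18a2*, the vesicular transporter, alone (12.5 percent, beside the same 3.67 percent) had an unadjusted p-value under 0.05, with an interaction of -0.42 at means from 72.6 to 91.1 normalized counts.

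Among the glutamate receptors, *Grm3*, *Grik2* and *Grik5* had an unadjusted p-value under 0.05. None of 4 AMPA and 6 NMDA receptor subunits had one in either direction, with medians of 0.08 and 0.06. Without mice 9.3 and 8.4 these medians were 0.00 and -0.05, and with the length trend removed 0.03 and -0.01. *Gria1*, *Gria2*, *Grin2a* and *Grin2b* had interactions of 0.03, 0.06, 0.19 and 0.13, whose intervals held 0 and whose signs each turned under some alternative. Without mouse 9.3, *Grin2a* was at 0.04 and *Grin2b* at 0.03. *Grm3*, a metabotropic receptor of astrocytes and neurons, had 0.34 (standard error 0.13) and 0.22 without mouse 9.3. It was 1 of 7 metabotropic receptors (14.3 percent, beside 3.86 percent of all genes). Kainate and delta receptors, 7 genes, had *Grik2* with 0.22 and *Grik5* with -0.15 (14.3 percent each, beside 3.86 and 3.67 percent of all genes). Neither had an unadjusted p-value under 0.05 without mouse 9.3, where 1 other member was positive, beside 3.33 percent of all genes in that fit. The list median was 0.17, and it was 0.08 without 9.3 and 0.03 with the length trend removed. GABA-A receptors had 0 of 12.

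Of the other genes that the study names, *Dpysl2*, which organizes the neuronal cytoskeleton, had an interaction of -0.14, *Prkacb*, a catalytic subunit of protein kinase A, of 0.04, *Dync1h1*, the heavy chain of dynein, of 0.04 and *Uso1*, a vesicle tether of the Golgi, of 0.00. All 4 intervals held 0, and the signs of *Prkacb*, *Dync1h1* and *Uso1* turned under some alternative. Of 8 genes called between other groups in earlier tests of these data, *Znrf3* and *Zfp318* are described above, and *Mthfd1l*, an enzyme of folate metabolism, had an interaction of -0.21 with an interval from -0.39 to -0.02. *Otud1* had -0.16, *F3* -0.17, *Cox8a* -0.19, *mt-Te* -0.08 and *Olfr729* -0.31, with intervals that held 0. Without mouse 9.3, *mt-Te* was at 0.02 and *Olfr729* at -0.08.

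Immediate early genes, which neurons switch on within minutes of firing, had a negative interaction for 24 of 28, with a median of -0.15, but none had an unadjusted p-value under 0.05 in either direction. The median difference with duloxetine was -0.15 without the bacterium and -0.34 with it, and the score varied widely between mice, with -0.19 ± 0.33 (SD, n = 6) in the combined group. The highest score was that of mouse 9.1 (0.49) and the lowest were those of 10.2 (-0.62) and 11.3 (-0.47), the same mice as for the chaperones. Leaving out single mice moved the median of the list between -0.27 and -0.06. Of 14 genes of the Bdnf and CREB list and 13 ERK feedback genes, 0 had an unadjusted p-value under 0.05.

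Clock genes drive daily rhythms by a feedback loop of transcription. Of 19 members, 3 were negative at an unadjusted p-value under 0.05 and 0 positive (15.8 percent negative, beside 3.67 percent of all genes), with a median of -0.06 that was -0.02 without mouse 9.1, -0.03 without 2.2 and -0.09 without 7.2. *Dbp*, a clock-controlled factor, had 542, 675 and 768 normalized counts in control, 482, 589.9 and 606 in duloxetine, 664, 834 and 1030 in *R. flavefaciens* and 451, 560 and 638 in combined mice. All mice given both lay below all bacterium-only mice, and the interaction was -0.40 (standard error 0.14). *Per2*, a repressor of the loop, had -0.43 and *Tef*, a relative of *Dbp*, -0.16. The *Per2* ranges overlapped, with 859, 1172 and 1369 normalized counts in bacterium-only and 486, 855 and 956 in combined mice. *Dbp* overlaps *Sphk2* on the opposite strand.

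Enzymes that write and erase histone acetylation and methylation had 8 positive and 1 negative of 58 members at an unadjusted p-value under 0.05 (13.8 percent against 3.86 percent, and 1.72 percent against 3.67 percent) and a median of 0.08. *Kat6b* and *Kdm1b*, a histone demethylase, led with 0.44 and 0.43, *Kdm3b* had 0.17 and the negative member, *Hdac11*, -0.17. Without mouse 9.3, 4 were positive and 1 negative, beside 3.33 and 2.58 percent of all genes in that fit. The median was 0.02 without this mouse and 0.00 with the length trend removed, at a median exon length of 7832 bases. Mouse 9.3 had a list score of -0.21 and mouse 7.2 of -0.11, below all other mice.

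Synaptic vesicle genes had 4 positive (13.3 percent, beside 3.86 percent of all genes) and 0 negative of 30, *Unc13a* with 0.25, *Rims1* with 0.27 and *Rims2* with 0.24, which act in vesicle docking and priming, and *Slc17a6*, a vesicular glutamate transporter, with 0.46. Their list median was 0.00. Clustered protocadherins, which give neurons their surface identity, had 6 positive of 54 (11.1 percent) and a median of 0.09, which was 0.04 without mouse 9.3 and 0.01 without 9.3 and 8.4. Members of a cluster share their last exons, so that reads may have been split among them. Of 38 collagens 5 were positive (13.2 percent) and 0 negative, *Col19a1* with 0.55 after *Col15a1*, and the list median of 0.06 turned to -0.01 without mouse 2.2. This median was 0.16 without 8.4, 0.13 without 12.4 and 0.01 with the length trend removed. Splicing factors had 2 positive (3.85 percent) and 6 negative (11.5 percent) of 52, and 4 positive and 3 negative without mouse 9.3. Among the negative were *Snrpb* with -0.21 and *Snrpb2* with -0.19, of the spliceosome core, and the positive were *Sf3b1* with 0.23 and *Srsf5* with 0.47. *Srsf5* had 2341, 2692 and 2984 normalized counts in mice given both and 1185, 1827 and 2365 in bacterium-only mice, overlapping only at the end.

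**Figure D5:**
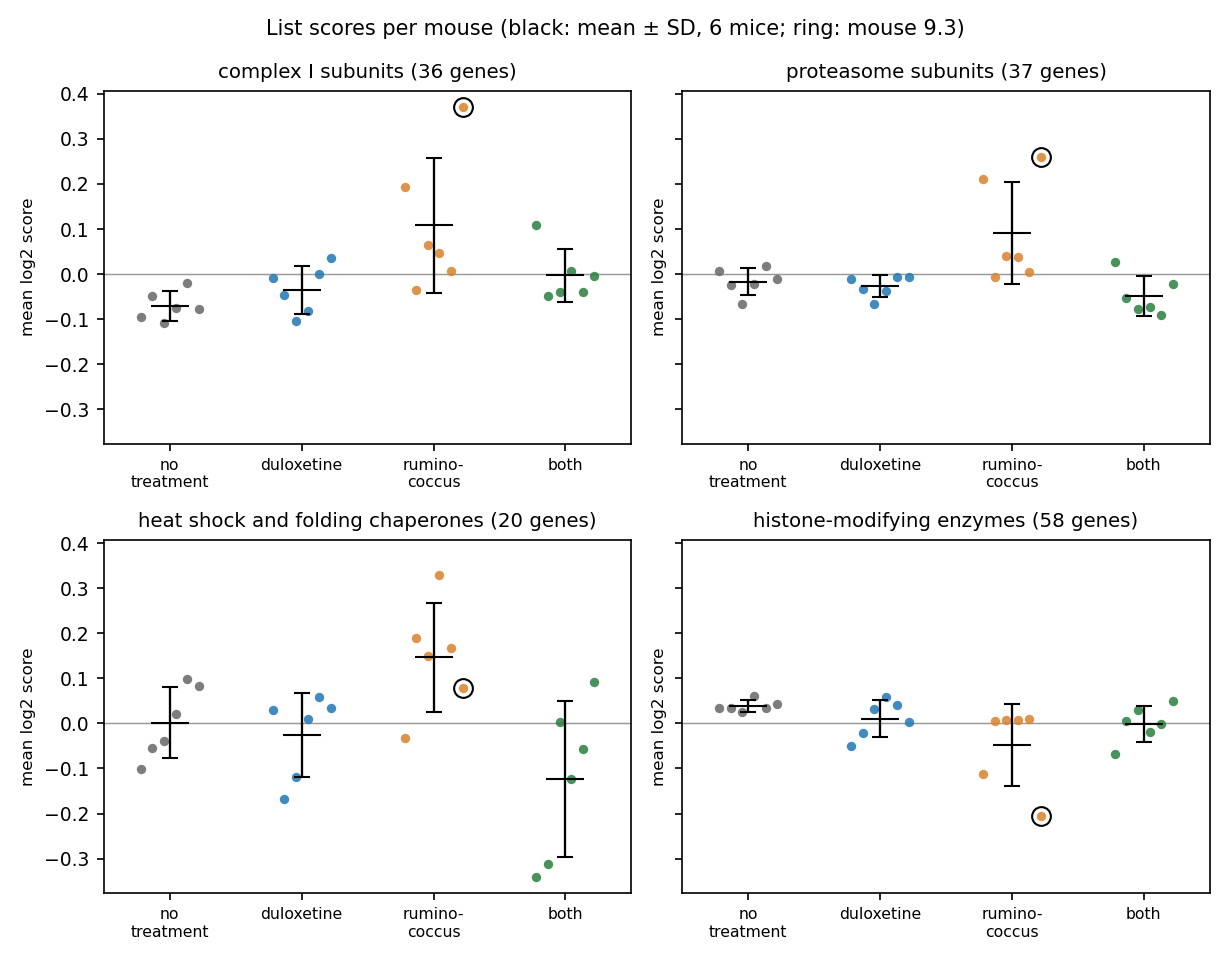
Mean log2 score of 4 gene lists in each of 24 mice, with the group mean and SD in black and mouse 9.3 ringed. Mouse 9.3 is the highest for complex I (0.37) and the lowest for the histone-modifying enzymes (-0.21), while for the chaperones it lies among its group mates and mice 10.2 and 11.3, given both, are lowest.

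The remaining lists had at most 3 members below an unadjusted p-value of 0.05, to be read beside 3.86 percent positive and 3.67 percent negative of all genes. Interferon response and MHC class I genes had *Bst2* alone of 21 (4.76 percent), with an interaction of -0.79 at means from 18.2 to 32.6 normalized counts, and a median of -0.20. The integrated stress response had 3 negative of 17 (17.6 percent), *Herpud1* with -0.27 and *Ddit3* with -0.22 among them, and 2 without mouse 9.3. Cholesterol genes had 1 positive of 21 (4.76 percent), *Insig1*, which holds back sterol synthesis, with 0.23. Potassium channels had 2 positive of 73 (2.74 percent) and sodium and calcium channels 1 of 34 (2.94 percent), both below the share of all genes. Non-clustered protocadherins and cadherins had 2 positive of 31 (6.45 percent) and 1 without mouse 9.3, and protein kinase A and cAMP genes 1 positive of 24 (4.17 percent). Of 15 neuropeptides and interneuron markers, *Reln*, a matrix protein of interneurons, had an interaction of 0.23, and the tachykinins *Tac1* and *Tac2* of -0.43 and -0.41. These were 1 positive (6.67 percent) and 2 negative members (13.3 percent), and 0 and 1 without mouse 9.3. Motor proteins had 1 positive and 2 negative of 50 (2.0 and 4.0 percent). Corticosteroid receptors and targets had 0 of 19, and postsynaptic scaffolds 0 of 29.

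Markers of other cell types were measured beside these lists. The 9 meningeal markers had a median interaction of -0.52, which was -0.31 without mouse 5.1 and -0.74 without 2.2, with *Lum* as the only member at an unadjusted p-value under 0.05 and none without mouse 9.3, and summed levels with a median of 1118 normalized counts with the bacterium and 962 with both, led by *Col1a2*. The highest sums were 1949 in control mouse 2.2 and 1803 in duloxetine mouse 5.1, where the group medians were 861 and 1020. Of 8 choroid plexus markers 4 were in the table, all with a negative interaction and a median of -0.40, which was -0.63 without mouse 11.4, -0.22 without 8.4 and -0.17 without 9.3 and 8.4. *Ttr*, the most specific of them, was at 0 in some mice and had an interaction of -2.85 with an interval from -6.03 to 0.33. The 5 blood markers, led by *Hbb-bs*, were all negative too, with a median of -0.32 that went from -0.51 to -0.02 with single mice left out and was -0.04 without 9.3 and 8.4, and summed levels with a median of 535 normalized counts with the bacterium and 470 with both. The 12 oligodendrocyte markers had a median of -0.13, which went from -0.36 to 0.13 with single mice left out and was above 0 without 2.2, 6.2, 6.3, 8.4, 9.2, 12.3 or 12.4, with summed levels from 13520 to 50600 in bacterium-only and from 12860 to 57450 in combined mice, led by *Mbp*. Of the 10 microglia markers 9 were negative, with a median of -0.11 that went from -0.18 to -0.05 with single mice left out and was -0.02 without 9.3 and 8.4, and *Tmem119* had an interaction of -0.23, the only member at an unadjusted p-value under 0.05 and not so without mouse 9.3. Of the 9 markers of deep cortical layers 8 were positive and 0 had an unadjusted p-value under 0.05, with a median of 0.12 that was 0.06 without mouse 5.1 and 0.19 without 8.3. The part of these cells in the interactions was not tested.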

How the data were processed

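Poly(A) RNA of 24 mice was sequenced, and the deposited values are normalized counts per gene (a signal scaled by size factors), made by the authors per the submitters' processing notes with TopHat2 2.1.0, Bowtie2 2.2.6 and DESeq2 1.18.1. The notes name the build mm9 and the methods GRCm38.p5; gene positions in the table are those of GRCm38 (14253 of 15438 gene identifiers had the same position in GENCODE vM21). The counting program, its strand setting and any filter on low counts are not given in the sources used here. Whole reads were recovered from the deposited normalized counts for 99.997 percent of 370875 values above 0 (within 0.0051), and 69 values were 0. Recovered depth was 12811413 to 15607343 reads per mouse. No column was left out.

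Here, log2(value + 1) was fitted over all 4 groups with limma 3.58.1 (R 4.3.3) for genes whose mean normalized count reached 10, and p-values were Benjamini-Hochberg adjusted over 14974 genes. Replicates are separate mice, which were group housed according to the methods. The labels do not name cages, and their first numbers are not shared between groups. Whether shared housing contributed to the group differences was not tested. Alternatives were a pseudocount of 0.1, no filter or a mean of at least 50, quantile and 75th percentile scaling, edgeR 4.0.16 and DESeq2 1.42.0 on recovered reads, a robust prior, weights per mouse, a random block for the first number in the mouse labels, removal of a length trend, and each mouse left out. Leaving out mice 9.3 and 8.4 together was chosen after seeing the data. Named genes were the 15 of each sign with the smallest p-values, genes named by the study or called in other comparisons, and up to 4 members of each list with the smallest p-values; others named, such as further chaperones, were chosen after their values were seen. Genes and lists were chosen with earlier results of these data known. Results for 2 of the named genes are not reported here. The steps were tested on simulated data.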

Additional observations from a re-analysis of the deposited data

Results flagged for a closer look

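In 588 sets of 6 mice (the 4 groups for depth, 95 genes, which include all whose interaction is given here by name, and 51 list scores), 34 (5.78 percent) had a mouse whose gap to its nearest group mate was a larger share of the group's range than Dixon's 95% critical value for 6 samples. Chance gives about 1 in 20. Mouse 9.3 accounted for 9 of them and the *R. flavefaciens* group for 11.

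Mouse 9.3 had 565.8 normalized counts of *Kat6b*, 383.6 of *Ccdc184*, 9817 of *Dync1h1*, 465.0 of *Olfr729*, 4603 of *Cox8a*, 1155 of *Ndufb9* and 749.9 of *Ndufa3*. Its mean log2 score was -0.282 for sodium and calcium channels and -0.2997 for protein kinase A and cAMP genes, where its group mates lay between -0.0288 and 0.0315. In the same group, mouse 8.4 had 657.1 normalized counts of *Ttr*, a choroid plexus marker, where its group mates had at most 54.95, and mouse 7.2 had a score of -0.254 for corticosteroid receptors and targets.

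In the control group, mouse 2.1 had 14446451 recovered reads. Mouse 1.1 had 40.51 normalized counts of *Hspb1* and a score of -0.0972 for the integrated stress response, and mouse 2.3 had a score of -0.0181 for metabotropic glutamate receptors. Mouse 3.1 had 275.4 normalized counts of *Ddit3*. Mouse 2.2 had 83.29 of *Lum* and a score of 1.04 for meningeal markers, and mouse 3.3 of 0.332 for markers of deep cortical layers.

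In the duloxetine group, mouse 6.2 had 391.5 normalized counts of *Pias4* and 5914 of *Rims1*, with scores of -0.142 for adrenergic receptors and 0.0672 for motor proteins. Mouse 5.4 had 481.7 normalized counts of *Dbp* and mouse 5.3 had 68.57 of *Ttr*. Mouse 5.1 had a score of 0.0134 for the tricarboxylic acid cycle and mouse 6.3 of 1.06 for blood markers.

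In the combined group, mouse 12.3 had 49.36 normalized counts of *5930430L01Rik*, mouse 12.4 had 4786 of *Tef*, and mouse 11.4 had 252.5 of *Col19a1*, 937.7 of *Kdm3b* and a score of 1.181 for striatum markers. Mouse 10.2 had a score of 0.109 for complex I and 0.116 for the ATP synthase.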

How the results depend on the processing

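No alternative called a gene at an adjusted p-value under 0.05 (36 settings, smallest adjusted p-value 0.247). The count at an unadjusted p-value under 0.05 ranged from 832 to 1443 with a mouse left out, and was 926 with the length trend removed, 934 with weights per mouse and 1377 with the block. Among these genes, the share with the *R. flavefaciens* group farthest out was 47.6 to 71.7 percent with a mouse left out (lowest without 9.3, highest without 8.3), and 51.9 percent without 9.3 and 8.4. Of 95 genes followed, 86 kept their sign in each of the 36 settings that gave them a value (8 genes had none with a mean of at least 50), and 9 turned in 30 of 3412 fits; the cause was not tested. With the length trend removed, *Gria1* was at -0.00504, *Gria2* at -0.0663, *Grin2b* at -0.0264, *Prkacb* at -0.029, *Dync1h1* at -0.0803 and *mt-Te* at 0.00783. Without 9.3 and 8.4, *Gria1* was at -0.0181, *Grin2a* at -0.0692, *Grin2b* at -0.0558, *Prkacb* at -0.0417, *Dync1h1* at -0.069, *mt-Te* at 0.0713 and *Hspa4l* at -0.0383. With weights per mouse, *Dync1h1* was at -0.0248 and *mt-Te* at 0.0112, and with the block *Uso1* was at 9.79e-05. With a mouse left out, *Gria1* ranged from -0.0064 to 0.061, *Dync1h1* from -0.044 to 0.079, *Uso1* from -0.036 to 0.030 and *mt-Te* from -0.163 to 0.0207. No paired analysis was possible because the labels share no replicate numbers between groups. The 6 mice per group limit the precision to a median 95% interval of 0.253 on either side.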
